A study of Homo sapiens with 6 samples.

Results

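The 32 members are the genes that carry glucose through glycolysis to lactate or to the mitochondrial entry of pyruvate, with the regulators of phosphofructokinase and 3 genes of glycogen metabolism. They were taken by gene name from the arrays, which hold 43317 gene names, and they had 43 of the 58201 probes. They fall into glucose uptake (2 members), the upper steps from hexokinase to triosephosphate isomerase (12), the lower steps from GAPDH to pyruvate kinase (6), lactate production and export (4), pyruvate entry (5) and glycogen (3). RNA came from BT474, a breast cancer line that expresses the estrogen receptor and HER2, on 6 one-color Agilent arrays. Control BT474 cells carried empty pcDNA3.1, BT474-Var1 cells pcDNA3.1-NR2F1-AS1variant1 and BT474-Var4 cells pcDNA3.1-NR2F1-AS1variant4, with 2 arrays each (A and B), and all were kept in RPMI-1640 with serum. NR2F1-AS1 is a long non-coding RNA, of which variant 1 is a long and variant 4 a short form. The comparison asks how the RNA of the pathway differed between cells made to express either form and cells with the empty vector. By the paper, plasmids entered by nucleofection and the stable cells passed an antibiotic selection. It also reports that the variant cells shrank to few survivors before colonies grew out, so each variant population may descend from few cells. Variant 4 was cloned into a plasmid with eGFP and variant 1 into one with hygromycin resistance, and the sources used here do not say which empty plasmid the Control arrays stand for. Whether the A and B arrays came from separate cultures is not given either, so p-values measure the spread between these samples, which may be technical.

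Glycolysis splits glucose into pyruvate in the cytosol. Its entry is set by glucose transporters, hexokinase and phosphofructokinase, and most steps have several isoforms from separate genes, of which some serve nearly all tissues and others are induced by low oxygen, hormones or growth signals. Pyruvate is then either reduced to lactate by lactate dehydrogenase and exported, or taken into mitochondria and oxidized by pyruvate dehydrogenase, which the pyruvate dehydrogenase kinases switch off by phosphorylation. Breast cancer cells often take up much glucose and release lactate even where oxygen is present. In bulk RNA, a change in the share of a cell type and a change in the RNA per cell cannot be told apart, and RNA does not measure flux.

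A level is given as the log2 of the background-subtracted signal minus the 75th percentile of its array, so that 0 is the signal of that percentile, and levels of different probes are not set against each other. Of the probes, 47.6% (BT474-Var4 B) to 57.5% (Control B) were well above background per array, replicate arrays correlated at r = 0.980 to 0.987 across probes, and 0 spots were saturated. All 6 arrays lay on 1 slide, with both BT474-Var1 arrays in its other row, so that slide position and variant 1 cannot be told apart. NR2F1-AS1 had 4 probes. A probe at chr5:92745544-92745603 (hg19) was well above background on both BT474-Var1 arrays only, at least 15.1-fold over Control (adjusted p = 0.00233). A probe at chr5:92877924-92877983 marked BT474-Var4 cells, at least 48.8-fold over BT474-Var1 (adjusted p = 0.00337), so neither variant went against its label. All 7 luminal markers (such as ESR1, ERBB2 and KRT8) were well above background on all arrays, with signals that summed on a linear scale, with the 75th percentile as 1, to 1092 to 1175. That sum rests on the brightest of them. In each variant 2 of the 7 were called lower, EPCAM (-0.66) and PGR (-0.29) in BT474-Var1 and PGR (-1.22) and ESR1 (-0.47) in BT474-Var4 cells. ERBB2 and KRT8 were called higher in BT474-Var1 cells. Over all genes 14.2% were called higher and 20.7% lower in BT474-Var1 cells, and 10.2% and 14.6% in BT474-Var4 cells. With 7 genes the counts are too few to set apart from these shares. The signals of the 5 fibroblast markers, summed on the same linear scale, were 3.11 to 3.15 in Control, 3.66 to 3.78 in BT474-Var1 and 5.51 to 5.70 in BT474-Var4 cells, with COL1A2 and LUM well above background on no array and DCN on the BT474-Var4 arrays alone. Of the 3 with a tested probe, 2 were called higher by 2-fold or more in BT474-Var4 cells and 1 was called higher in BT474-Var1 cells, with 0 lower in either. DCN passed the filter through the BT474-Var4 arrays alone, so a fall there was not open to it. Over all genes 1.69% were called higher by 2-fold or more in BT474-Var4 cells, and 3 genes are few for such a count. The 3 leukocyte markers summed to 1.09 to 1.26 over all arrays and the 3 endothelial markers to 1.77 to 2.78, lowest in BT474-Var1 cells. The part of these markers in the results was not tested.

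Most of the pathway was higher in BT474-Var1 cells than in Control, while in BT474-Var4 cells few members differed. Of the 31 members with a tested probe, 21 rose in BT474-Var1 cells, 2 fell (LDHB and PDHB) and 8 were not called (adjusted p under 0.05, limma). Over all 24616 gene names tested, 14.2% were called higher and 20.7% lower. The median log2 difference of the members was 0.52, beside -0.05 over all genes. At 2-fold or more, 8 members were higher (ENO2, PFKFB4, ALDOC, PDK1, PFKFB3, HK2, PGK1 and GPI) and 0 lower, beside 2.86% and 1.14% of all genes. The rises covered all 6 members of the lower steps, 8 of 12 of the upper steps, 2 of 3 tested members of lactate production and export, all 3 of glycogen, 1 of 2 of uptake and 1 of 5 of pyruvate entry. The median over the members of the difference from the Control mean was 0.48 on BT474-Var1 A, 0.49 on BT474-Var1 B, -0.06 on BT474-Var4 A and -0.08 on BT474-Var4 B. SLC16A1, a lactate transporter of the plasma membrane, was not tested, since it was well above background on Control B alone. Without Control A, and likewise without Control B, 15 of the 23 calls were left, and the calls of SLC2A1, TPI1, GAPDH, PGAM1, ENO1, LDHB, PDHB and PGM1 were lost. With no filter on dim probes, which raises the number of tests, 12 were left.

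**Figure D1:**
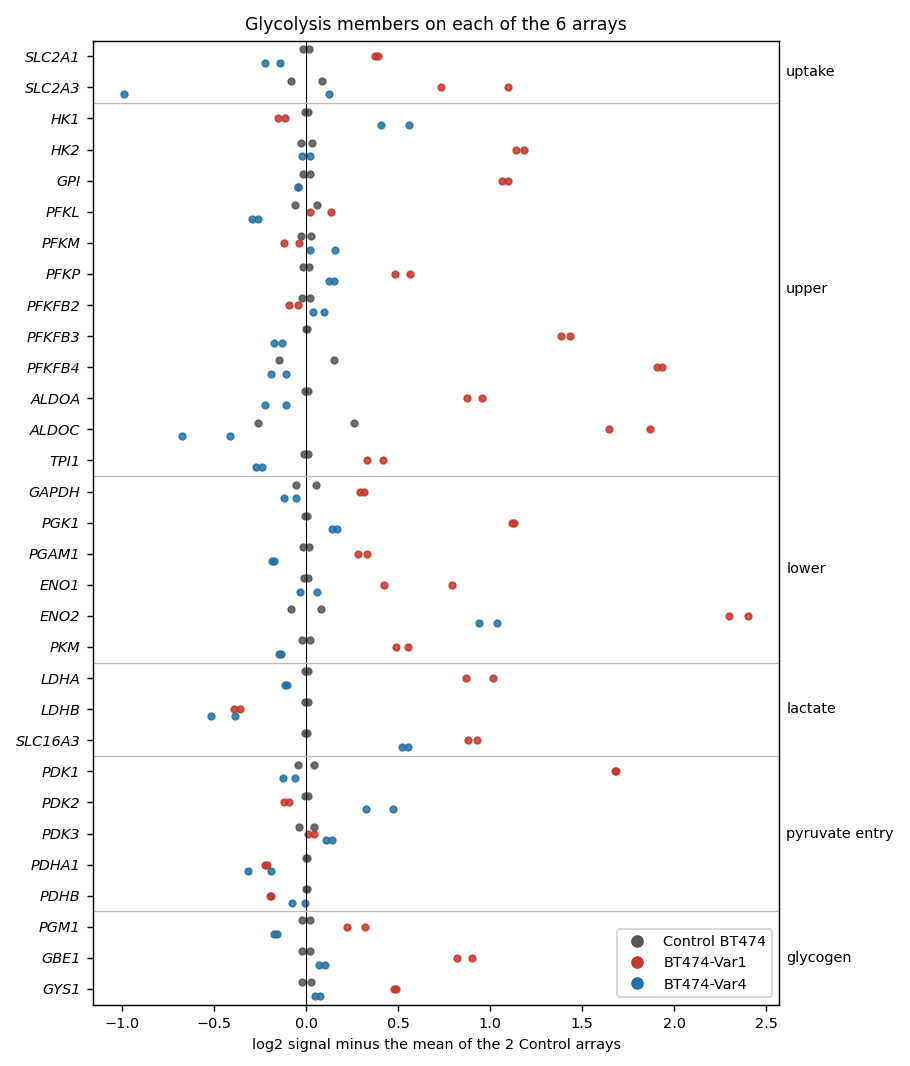
Log2 signal of each tested member on each array minus the mean of the 2 Control arrays (x axis), with members in rows by step and 1 point per array, gray for Control BT474, red for BT474-Var1 and blue for BT474-Var4. Red points lie to the right for most members, up to ENO2, and to the left for LDHB, PDHA1 and PDHB. Blue points mostly lie near 0, apart from ENO2, SLC16A3, HK1 and PDK2 to the right. To the left lie those of LDHB, ALDOC and, on BT474-Var4 A, SLC2A3.

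The 5 members that rose most in BT474-Var1 cells were ENO2, PFKFB4, ALDOC, PDK1 and PFKFB3. The 250 bases before their starts in RefSeq (GRCh38.p14) are shown with the lactate dehydrogenase pair, of which LDHA rose and LDHB fell, because these members moved together or apart. Each sequence runs 5' to 3' on the strand of its gene, and capitals mark ACGTG and GCGTG on either strand, the core letters at which hypoxia-inducible factors are known to bind.
ENO2 (chr12:6914330-6914579, + strand): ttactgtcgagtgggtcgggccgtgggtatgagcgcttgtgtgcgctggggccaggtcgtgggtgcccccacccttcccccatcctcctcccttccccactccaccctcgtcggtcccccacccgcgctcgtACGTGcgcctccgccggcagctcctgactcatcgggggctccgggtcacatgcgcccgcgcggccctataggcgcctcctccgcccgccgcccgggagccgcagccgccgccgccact
PFKFB4 (chr3:48556804-48557053, - strand): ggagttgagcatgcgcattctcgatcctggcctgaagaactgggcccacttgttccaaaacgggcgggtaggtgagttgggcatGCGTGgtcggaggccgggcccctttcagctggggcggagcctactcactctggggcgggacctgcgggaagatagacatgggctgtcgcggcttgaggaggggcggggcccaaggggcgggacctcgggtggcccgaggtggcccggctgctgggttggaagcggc
ALDOC (chr17:28576896-28577145, - strand): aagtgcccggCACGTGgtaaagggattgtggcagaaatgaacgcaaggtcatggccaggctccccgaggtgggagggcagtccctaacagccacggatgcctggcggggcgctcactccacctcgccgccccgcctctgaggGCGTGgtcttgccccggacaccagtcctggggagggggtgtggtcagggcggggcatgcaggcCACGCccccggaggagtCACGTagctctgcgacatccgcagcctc
PDK1 (chr2:172555123-172555372, + strand): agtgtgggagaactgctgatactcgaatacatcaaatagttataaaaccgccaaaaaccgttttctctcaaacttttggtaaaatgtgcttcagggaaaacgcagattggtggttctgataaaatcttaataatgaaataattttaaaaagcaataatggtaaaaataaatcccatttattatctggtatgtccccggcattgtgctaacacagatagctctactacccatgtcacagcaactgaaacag
PFKFB3 (chr10:6144671-6144920, + strand): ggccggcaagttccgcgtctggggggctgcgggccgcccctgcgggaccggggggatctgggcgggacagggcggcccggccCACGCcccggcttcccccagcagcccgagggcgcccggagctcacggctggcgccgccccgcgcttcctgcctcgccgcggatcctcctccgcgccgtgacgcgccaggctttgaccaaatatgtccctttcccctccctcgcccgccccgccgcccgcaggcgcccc
LDHA (chr11:18394313-18394562, + strand): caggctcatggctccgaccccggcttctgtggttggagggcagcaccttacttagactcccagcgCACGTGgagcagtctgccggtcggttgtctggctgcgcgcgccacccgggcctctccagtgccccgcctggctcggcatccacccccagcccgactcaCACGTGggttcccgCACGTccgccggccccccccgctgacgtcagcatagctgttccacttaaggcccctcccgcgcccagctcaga
LDHB (chr12:21657843-21658092, - strand): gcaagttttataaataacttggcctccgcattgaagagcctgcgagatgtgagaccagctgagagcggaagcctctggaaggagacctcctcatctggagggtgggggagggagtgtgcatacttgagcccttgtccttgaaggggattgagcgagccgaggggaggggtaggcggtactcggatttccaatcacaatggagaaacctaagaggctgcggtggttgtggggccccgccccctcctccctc
ALDOC and LDHA held 5 matches each, of which some are both strands of CACGTG, the letters that MYC and related factors bind. ENO2, PFKFB4 and PFKFB3 held 1 each, and PDK1 and LDHB none in these windows. RefSeq's table gave a start for 29 of the 32 members, all but SLC2A3, PFKFB2 and SLC16A1. Of these, 17 (58.6%) held ACGTG or GCGTG, against 43.1% of all 27305 windows of the same length. Among the 21 members that rose in BT474-Var1 cells 13 held a match, and among the other members 4 of 8. CACGTG stood in 4 of the 29 windows, against 6.49% of all. The windows of all genes were not matched to those of the members for base composition or expression, so the shares are not a test. A match is only a run of letters, other starts of these genes were not examined, and no binding was measured here. GAPDH, TPI1 and ENO2 lie within 379.3 kb on chromosome 12, in that order, and had log2 differences of 0.31, 0.38 and 2.35 in BT474-Var1 against Control cells.

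**Figure D2:**
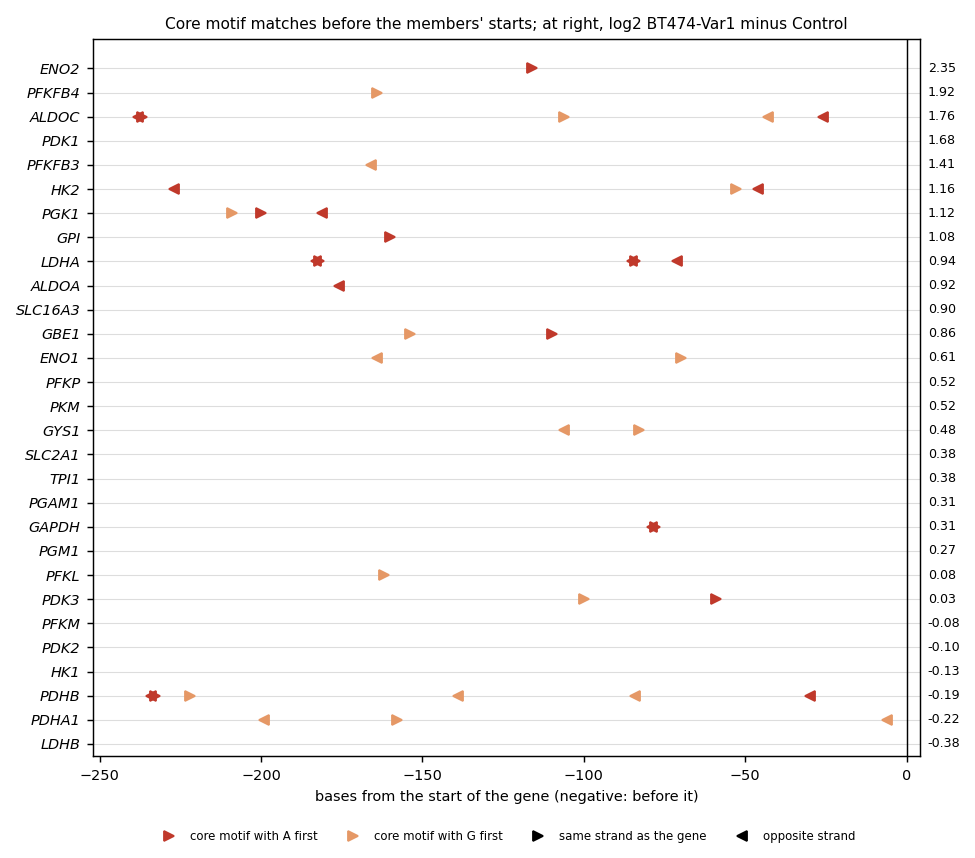
Positions of the core motif before the starts of the 29 members with a RefSeq window (x axis, bases from the start), in rows ordered by the log2 difference of BT474-Var1 from Control cells, which is printed at the right. Triangles point along the strand of the match, red for ACGTG and orange for GCGTG, and facing triangles at 1 place are both strands of CACGTG. Matches stand both among the members that rose most and, as in PDHB and PDHA1, among those at the bottom.

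Of the glucose transporters, 1 of 2 was called, in BT474-Var1 cells. SLC2A1 encodes GLUT1, the basal glucose transporter of many tissues. Its level was 3.91 and 3.94 in Control, 4.29 and 4.31 in BT474-Var1 and 3.78 and 3.70 in BT474-Var4 cells. The groups did not overlap. The rise in BT474-Var1 cells was 1.30-fold (log2 0.38, adjusted p = 0.0107), and it was not called without Control A, Control B or BT474-Var1 B (highest adjusted p over the alternatives 0.0791). In BT474-Var4 cells the difference was -0.18 (adjusted p = 0.0786). SLC2A3, the high-affinity transporter GLUT3, was dim, with levels of -3.96 and -4.13 in Control, -2.95 and -3.31 in BT474-Var1 and -5.03 and -3.92 in BT474-Var4 cells. It was well above background on 1 Control array, both BT474-Var1 arrays and 0 BT474-Var4 arrays, and its difference of 0.92 between BT474-Var1 and Control cells was not called (adjusted p = 0.144). With normexp this difference was 0.15. Between the variants the difference was -1.35, and it was -1.90 without BT474-Var4 B and -0.20 with normexp. Both comparisons were called under some alternatives. SLC2A3 passed the filter through the BT474-Var1 arrays alone, so these calls are no support for a difference.

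In the upper steps 8 of 12 members rose in BT474-Var1 cells and 1, HK1, rose in BT474-Var4 cells. Hexokinase 2, the isoform of muscle and of many tumors that phosphorylates glucose, had levels of 4.03 and 4.09 in Control, 5.20 and 5.24 in BT474-Var1 and 4.03 and 4.08 in BT474-Var4 cells. Both BT474-Var1 arrays lay above all others, by 2.24-fold over Control (adjusted p = 0.00276), and the BT474-Var4 arrays lay among the Control arrays. A dim second probe of HK2 was well above background only in BT474-Var1 cells, by at least 1.96-fold over Control. It passed the filter through that group alone, so it is no separate support for the rise. Hexokinase 1, the isoform of most tissues, had levels of 4.50 and 4.52 in Control, 4.40 and 4.36 in BT474-Var1 and 4.92 and 5.07 in BT474-Var4 cells. It rose in BT474-Var4 cells (1.40-fold, adjusted p = 0.0159), a call lost without Control A, Control B or BT474-Var4 B, and its difference in BT474-Var1 cells was -0.13 (adjusted p = 0.210). GPI, which turns glucose 6-phosphate into fructose 6-phosphate, was at 7.55 and 7.52 in Control, 8.60 and 8.63 in BT474-Var1 and 7.49 on both BT474-Var4 arrays. It rose 2.12-fold in BT474-Var1 cells (adjusted p = 0.00269).

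Phosphofructokinase catalyzes the committed step, and 1 of its 3 subunits rose. PFKP, the platelet subunit, rose in BT474-Var1 cells (levels 5.63 and 5.55, Control 5.05 and 5.08, 1.44-fold, adjusted p = 0.00603), and its second probe gave 0.48 (adjusted p = 0.00913). The liver subunit PFKL and the muscle subunit PFKM were not called in either variant, with differences of 0.08 and -0.08 in BT474-Var1 cells and -0.28 (adjusted p = 0.0585) and 0.09 in BT474-Var4 cells. The PFKFB enzymes make and break down the metabolite that activates phosphofructokinase. PFKFB4 had levels of 0.35 and 0.65 in Control, 2.40 and 2.43 in BT474-Var1 and 0.39 and 0.31 in BT474-Var4 cells. The BT474-Var1 arrays stood far above both other groups, which overlapped, and the rise was 3.78-fold (log2 1.92 ± 0.11 SE, adjusted p = 0.00311). PFKFB3, the isoform with the highest kinase over phosphatase activity, was at 0.73 on both Control arrays, 2.17 and 2.11 in BT474-Var1 and 0.60 and 0.56 in BT474-Var4 cells, a rise of 2.65-fold in BT474-Var1 cells (adjusted p = 0.00233). A dimmer PFKFB3 probe rose too in BT474-Var1 cells (2.40, adjusted p = 0.0272), and in BT474-Var4 cells its arrays, at -3.52 and -2.01 over -4.36 and -4.07 in Control, gave 1.45 (adjusted p = 0.109) where the brighter probe gave -0.15 (adjusted p = 0.101). PFKFB2, the heart isoform, was not called, with -0.07 and 0.07 in BT474-Var1 and BT474-Var4 cells.

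Aldolase splits the 6-carbon sugar. ALDOA, the isoform of muscle and most cells, rose from 7.24 and 7.22 in Control to 8.10 and 8.18 in BT474-Var1 cells (1.89-fold, adjusted p = 0.00385). ALDOC, the brain isoform, was dim, at -3.69 and -3.17 in Control, -1.56 and -1.78 in BT474-Var1 and -3.84 and -4.11 in BT474-Var4 cells, and was well above background on 1 BT474-Var4 array. It rose 3.38-fold in BT474-Var1 cells (log2 1.76 ± 0.21 SE, adjusted p = 0.00755), and with normexp background correction, whose offset of 50 is added to dim signals, the difference was 0.44 (adjusted p = 0.000149). Triosephosphate isomerase, TPI1, which has no other isoform, moved in opposite directions in the variants. Its levels were 7.40 and 7.42 in Control, 7.74 and 7.83 in BT474-Var1 and 7.17 and 7.14 in BT474-Var4 cells. The rise of 1.30-fold (adjusted p = 0.0116) was not called without Control A, Control B or BT474-Var1 B. The fall of 0.26 on the log2 scale in BT474-Var4 cells (adjusted p = 0.0387) was lost without any 1 of the 6 arrays, and it was -0.14 (adjusted p = 0.133) under quantile normalization.

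All 6 members of the lower steps, where ATP and NADH are made, rose in BT474-Var1 cells, by 1.24-fold to 5.09-fold. Enolase makes phosphoenolpyruvate, and ENO2 is its neuronal isoform. ENO2 had levels of -1.01 and -0.84 in Control, 1.37 and 1.47 in BT474-Var1 and 0.11 and 0.01 in BT474-Var4 cells. The 3 groups were fully apart, with BT474-Var4 cells between the others. BT474-Var1 cells differed from Control by 2.35 ± 0.09 on the log2 scale (SE, adjusted p = 0.00233). For BT474-Var4 cells it was 0.99 ± 0.09 (adjusted p = 0.00601). With normexp background correction the latter was 0.58 (adjusted p = 0.000157). Both calls held under each of the 16 alternatives other than the 2-fold rule. ENO1, the general isoform, was at 5.79 and 5.77 in Control, 6.20 and 6.57 in BT474-Var1 and 5.74 and 5.83 in BT474-Var4 cells. The BT474-Var1 arrays differed more from each other than those of the other groups, and the rise of 1.52-fold (adjusted p = 0.0303) was not called without Control A, Control B, BT474-Var4 A or BT474-Var4 B.

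PGK1, phosphoglycerate kinase, which makes the first ATP of the lower steps, had the closest replicates of the strong rises, with levels of 6.47 and 6.46 in Control, 7.59 on both BT474-Var1 arrays and 6.61 and 6.63 in BT474-Var4 cells. It rose 2.18-fold in BT474-Var1 cells (adjusted p = 0.00256), and its 0.15 in BT474-Var4 cells was not called (adjusted p = 0.0803). PKM, pyruvate kinase, rose 1.44-fold in BT474-Var1 cells (adjusted p = 0.00572), and the array names no splice form of it. GAPDH, often used as a reference gene, had levels of 8.17 and 8.06 in Control, 8.41 and 8.43 in BT474-Var1 and 8.06 and 7.99 in BT474-Var4 cells. Its rise of 1.24-fold (adjusted p = 0.0240) was lost without Control A, Control B, BT474-Var1 A or BT474-Var1 B. PGAM1, phosphoglycerate mutase, rose as much (1.24-fold, adjusted p = 0.0147) and was lost without the same arrays, while its second probe gave 0.41 (adjusted p = 0.0106), and for BT474-Var4 -0.26 (adjusted p = 0.0414). GAPDH, PGK1, PGAM1, ENO1, TPI1 and LDHA have near-identical pseudogene copies, and cross-hybridization to these was not tested.

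Lactate dehydrogenase changed in opposite directions in BT474-Var1 cells. LDHA, whose subunit predominates in muscle and in glycolytic tissue, was at 6.64 and 6.66 in Control, 7.66 and 7.52 in BT474-Var1 and 6.54 and 6.53 in BT474-Var4 cells, a rise of 1.92-fold in BT474-Var1 cells (adjusted p = 0.00383). A second probe under this name, which the files place on chromosome 9 and not with the gene on chromosome 11, gave 0.52 (adjusted p = 0.00519) and, for BT474-Var4, -0.28 (adjusted p = 0.0243). LDHB, the heart subunit, was the member that fell in both variants. Its levels were 5.35 and 5.37 in Control, 5.00 and 4.97 in BT474-Var1 and 4.97 and 4.84 in BT474-Var4 cells. The log2 difference was -0.38 for BT474-Var1 (adjusted p = 0.0159). It was -0.45 for BT474-Var4 (adjusted p = 0.0151). The call in BT474-Var1 cells was lost without Control A, Control B, BT474-Var1 A or BT474-Var1 B, and that in BT474-Var4 cells without Control A, Control B or BT474-Var4 B. Under quantile normalization the difference for BT474-Var1 was -0.23 (adjusted p = 0.0494). The second LDHB probe gave -0.58 (adjusted p = 0.00448) and -0.47 (adjusted p = 0.00766).

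SLC16A3 encodes MCT4, a low-affinity transporter known for lactate export. It was at 2.48 and 2.47 in Control, 3.35 and 3.41 in BT474-Var1 and 3.03 and 3.0 in BT474-Var4 cells, so that both variants lay above Control. BT474-Var1 cells were 1.87-fold higher (adjusted p = 0.00305). BT474-Var4 cells were 1.45-fold higher (adjusted p = 0.00693), which was not called without Control A or Control B. SLC16A1, or MCT1, was read only dimly, at -4.37 and -4.23 in Control, -5.95 and -6.22 in BT474-Var1 and -6.23 and -5.53 in BT474-Var4 cells.

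At pyruvate entry, PDK1 rose in BT474-Var1 cells and PDK2, on its brighter probe, in BT474-Var4 cells. The enzyme that these kinases inhibit was not called higher in either variant. PDK1, a pyruvate dehydrogenase kinase, had levels of 0.94 and 1.03 in Control, 2.66 and 2.67 in BT474-Var1 and 0.92 and 0.86 in BT474-Var4 cells. Its rise of 3.21-fold in BT474-Var1 cells (log2 1.68 ± 0.06 SE, adjusted p = 0.00230) held under each of these alternatives too. PDK2, the widely expressed kinase, rose in BT474-Var4 cells on its brighter probe (4.11 and 4.26 over 3.78 and 3.80, 1.32-fold, adjusted p = 0.0224). That call was not met by the second PDK2 probe (-0.13, adjusted p = 0.218) and was lost without Control A, Control B, BT474-Var4 B, BT474-Var1 A or BT474-Var1 B. In BT474-Var1 cells the brighter PDK2 probe gave -0.10 (adjusted p = 0.296) and the second fell by 0.76 on the log2 scale (adjusted p = 0.00470). PDK3 was not called on its brighter probe in either variant (0.03 and 0.12), while its second probe fell in both, with -0.43 (adjusted p = 0.00973) and -0.27 (adjusted p = 0.0412). PDHA1 and PDHB are the subunits of the first enzyme of the pyruvate dehydrogenase complex. PDHA1 was at 7.22 and 7.23 in Control, 7.0 and 7.01 in BT474-Var1 and 6.91 and 7.03 in BT474-Var4 cells, with adjusted p-values of 0.0574 and 0.0499, and the call in BT474-Var4 cells was lost without any 1 of the 6 arrays (-0.15 under quantile normalization). PDHB fell by 0.19 in BT474-Var1 cells (adjusted p = 0.0482), a call also lost without any 1 array, and under quantile normalization the difference was -0.07 (adjusted p = 0.375).

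The 3 glycogen members rose in BT474-Var1 cells and were not called in BT474-Var4 cells. GBE1, the branching enzyme, was at 1.38 and 1.33 in Control, 2.18 and 2.26 in BT474-Var1 and 1.45 and 1.43 in BT474-Var4 cells (1.82-fold in BT474-Var1 cells, adjusted p = 0.00346). GYS1, the muscle glycogen synthase, rose 1.40-fold (adjusted p = 0.00578). PGM1, which converts glucose 1-phosphate and glucose 6-phosphate into each other, rose 1.21-fold (adjusted p = 0.0286), a call lost without any 1 of the 6 arrays.

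Against Control cells, BT474-Var4 cells had 4 members higher (HK1, ENO2, SLC16A3 and PDK2), 3 lower (TPI1, LDHB and PDHA1) and 24 not called. Over all genes 10.2% were called higher and 14.6% lower. The median of the members was -0.09, beside -0.08 over all genes. By limma, 0 members passed 2-fold, also at an unadjusted p under 0.05 and by the methods' one-way analysis of variance. ENO2 passed 2-fold without Control B or without BT474-Var4 B, and 1.69% of all genes were higher and 1.54% lower at 2-fold. The 7 calls became 1 without Control A, 1 without Control B, 2 without BT474-Var4 B, 4 without either BT474-Var1 array and 1 with no filter on dim probes, and ENO2 was the call left in each of the cases with 1. They became 12 with normexp background correction and 16 with eBayes with a trend and robust estimation. Both variants were compared with the same Control arrays, so these lists are not independent.

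In the direct comparison of the variants, the log2 differences used no Control array. Its p-values did, since the spread was estimated over all groups, Control included. In BT474-Var4 against BT474-Var1 cells 22 members were lower, 2 higher (HK1 and PDK2) and 7 not called, with 21.0% of all genes lower and 20.9% higher. The median was -0.56, beside -0.03 over all genes. At 2-fold, 9 members were lower and 0 higher, beside 4.62% and 2.33% of all genes. The differences ran from -2.30 for ALDOC (adjusted p = 0.00332), -2.07 for PFKFB4 (adjusted p = 0.00143), -1.77 for PDK1 (adjusted p = 0.00118) and -1.56 for PFKFB3 (adjusted p = 0.00118) up to 0.50 for PDK2 (adjusted p = 0.00765) and 0.62 for HK1 (adjusted p = 0.00520). ALDOC was well above background on 1 BT474-Var4 array, and with normexp its difference was -0.57, smaller in size than that of PFKFB4, PDK1 or PFKFB3. PFKL was called here (-0.35, adjusted p = 0.0217) though in neither comparison with Control, and this call was lost without either BT474-Var4 array or BT474-Var1 A. For LDHB the difference between the variants was -0.08 with a 95% interval of -0.25 to 0.09. Leaving out any 1 array kept 21 to 23 of the 24 calls, with 21 without BT474-Var4 B.

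**Figure D3:**
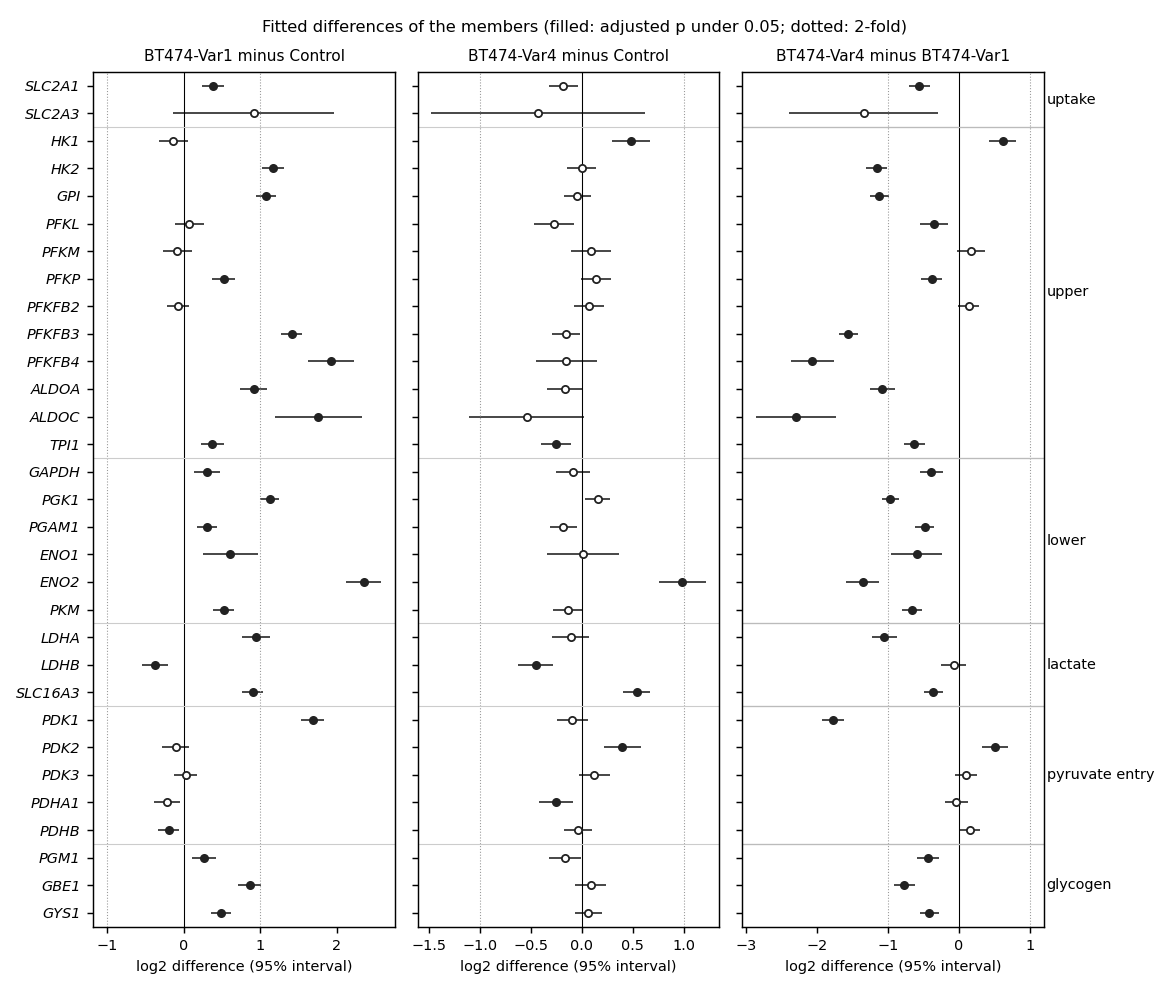
Fitted log2 differences of the tested members (x axis) with 95% intervals from limma, in BT474-Var1 minus Control, BT474-Var4 minus Control and BT474-Var4 minus BT474-Var1, with members in rows by step. Filled points have an adjusted p under 0.05 and dotted lines mark 2-fold, and the x axes differ in range. The filled points lie mainly to the right in the first panel (21 of 23) and to the left in the last (22 of 24).

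Changes within the families were also set against each other. For 11 pairs, the ratio of the isoforms within each array was taken as its log2 difference from the Control mean, which compares changes and not levels. HK2 over HK1 was 1.26 and 1.34 in BT474-Var1 but -0.43 and -0.54 in BT474-Var4 cells, on opposite sides of the Control arrays (-0.02 and 0.02). PDK1 over PDK2 likewise had means of 1.79 ± 0.02 for BT474-Var1 and -0.49 ± 0.15 for BT474-Var4 (SD, n = 2 each). PFKFB4 over PFKFB2 gave 1.99 ± 0.01 and, for BT474-Var4, -0.22 ± 0.02. Neuronal over general enolase (ENO2 over ENO1) was above Control on all 4 variant arrays, with 1.74 ± 0.19 and 0.98 ± 0.14. LDHA over LDHB gave 1.32 ± 0.08 and 0.34 ± 0.08, and PFKP over PFKL gave 0.45 ± 0.02 and 0.41 ± 0.04. PDHA1 over PDHB stayed nearest to Control in BT474-Var1 cells, where its sign turned with normexp (0.05) and quantile normalization (0.00), with -0.02 ± 0.003 and -0.21 ± 0.14. For ALDOC over ALDOA the mean was 0.84 ± 0.21 in BT474-Var1 cells, and the BT474-Var4 arrays overlapped the Control arrays, but with normexp it turned to -0.41 in BT474-Var1 cells and 0.03 in BT474-Var4 cells. Each ratio was compared by a two-sided exact permutation test, which with 2 arrays against 2 cannot go below p = 0.333, so none could pass. The ratios rest on 1 probe per gene, and some differ with the second probes. With the mean over a gene's tested probes, HK2 over HK1 in BT474-Var4 cells was -0.07. There, PDK1 over PDK2 was -0.23 and PDK1 over PDK3 -0.02, and PFKFB3 over PFKFB2 turned from -0.22 to 0.58. In BT474-Var1 cells these ratios kept their sign.

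**Figure D4:**
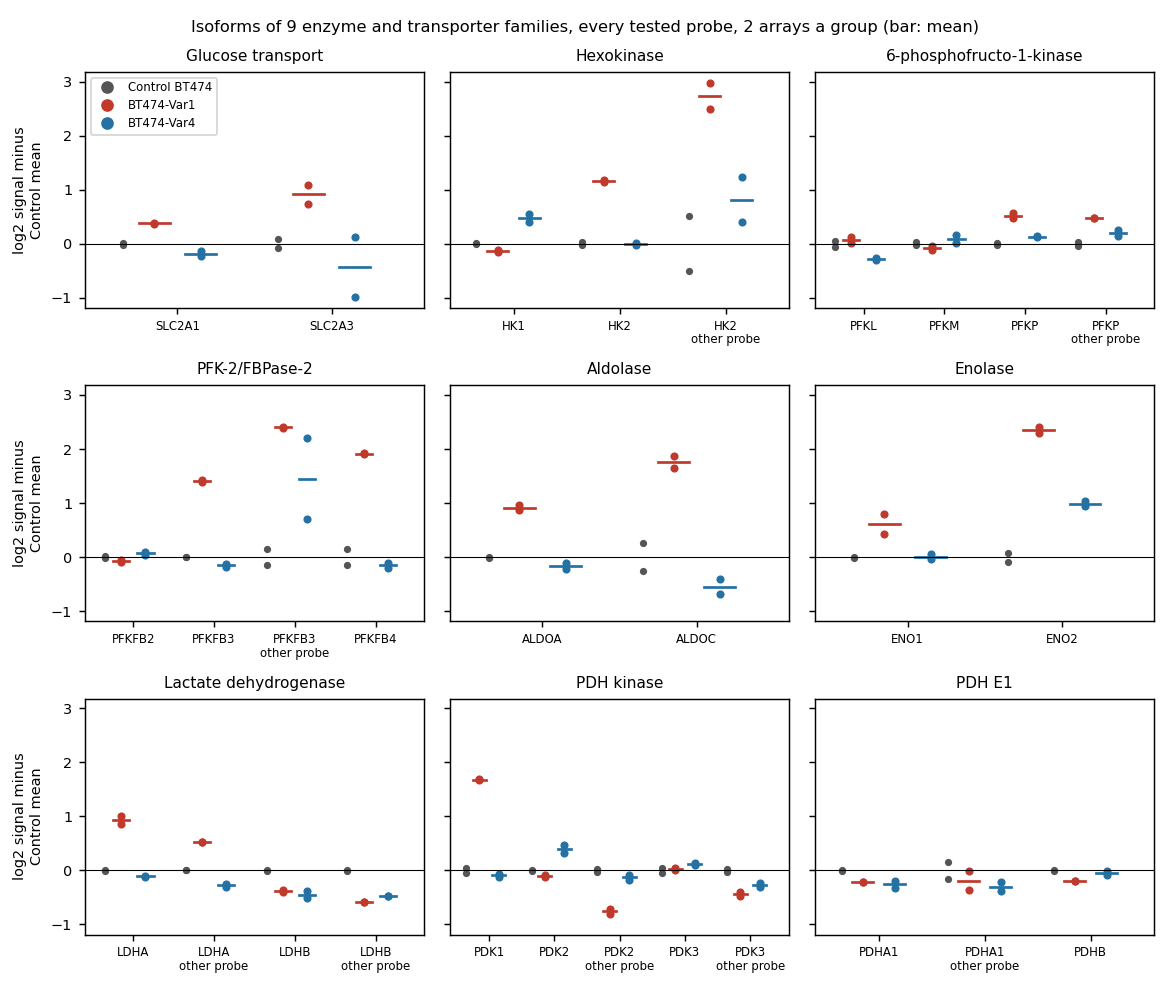
Log2 signal minus the Control mean (y axis) for every tested probe of 9 families of isoforms, with 1 point per array and a bar at the mean of the 2 arrays of BT474-Var1 (red) and BT474-Var4 (blue), and the Control arrays in gray. HK2, PFKFB3, PFKFB4, ENO2 and PDK1 stand above their sister isoforms in BT474-Var1 cells, as does ALDOC at this setting though not with normexp background correction, and second probes of PDK2 and PDK3 lie lower than the first.

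Around the members, 64 other genes of the pathway were on the array and 49 were tested. In BT474-Var1 against Control cells 14 were higher and 11 lower (median 0.04), and in BT474-Var4 cells 8 were higher and 3 lower (median 0.00). The shares over all genes were 14.2% higher and 20.7% lower in BT474-Var1 cells, and 10.2% and 14.6% in BT474-Var4 cells. Of 17 other isoforms of transport and glycolysis, 6 were higher in BT474-Var1 cells and 3 lower. ENO3, muscle enolase, was at -0.38 and -0.19 in Control, 0.90 and 0.88 in BT474-Var1 and -0.47 and -0.82 in BT474-Var4 cells, a log2 difference of 1.18 in BT474-Var1 cells (adjusted p = 0.00728). SLC2A14, a close copy of SLC2A3 with which it may share signal, had 1.14 (adjusted p = 0.0473) in BT474-Var1 cells and was well above background on 0 BT474-Var4 arrays. In glycogen metabolism, PGM2L1, which makes glucose 1,6-bisphosphate, and PYGL, the liver glycogen phosphorylase, rose in both variants by over 2-fold. In BT474-Var1 and BT474-Var4 cells in turn, PGM2L1 had 1.19 (adjusted p = 0.00269) and 1.04 (adjusted p = 0.00311), and PYGL 1.19 (adjusted p = 0.0121) and 1.21 (adjusted p = 0.0166).

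Of the 16 genes of the TCA cycle, which oxidizes the acetyl-CoA made from pyruvate, 12 were lower in BT474-Var1 than in Control cells and 1 higher (DLST), with a median of -0.34 beside -0.05 over all genes and 20.7% of all genes called lower. In BT474-Var4 cells 3 were higher and 1 lower, with a median of 0.02, beside 10.2% and 14.6% of all genes. Against BT474-Var1 cells, 12 of the 16 were higher in BT474-Var4 cells and 1 was lower, with a median of 0.39. Of all genes, 20.9% were higher and 21.0% lower in that comparison. In the upkeep of pyruvate entry, 4 of 9 tested genes besides the members were lower in BT474-Var1 cells and 1 higher, and in BT474-Var4 cells the 9 differences ran from -0.19 to 0.37. Of 11 known regulators of the pathway, 4 were higher and 1 lower in BT474-Var1 cells, and 5 were higher and 2 lower in BT474-Var4 cells, where over all genes 14.2% and 20.7% were called higher and lower in the former and 10.2% and 14.6% in the latter. HIF1A, the oxygen-regulated transcription factor that acts mainly at the level of its protein, was not called, with 0.13 (adjusted p = 0.113) and -0.03 (adjusted p = 0.686). MYC, an activator of glycolysis genes, fell by 0.62 (adjusted p = 0.00395) and by 0.58 (adjusted p = 0.00539) on the log2 scale. PPARGC1A, a coactivator of mitochondrial genes, rose most in BT474-Var4 cells (1.20, adjusted p = 0.00587) and less in BT474-Var1 cells (0.57, adjusted p = 0.0182), where the difference between the variants was 0.63 (adjusted p = 0.0121). The lists were described by counts, and no list was tested as such.

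**Figure D5:**
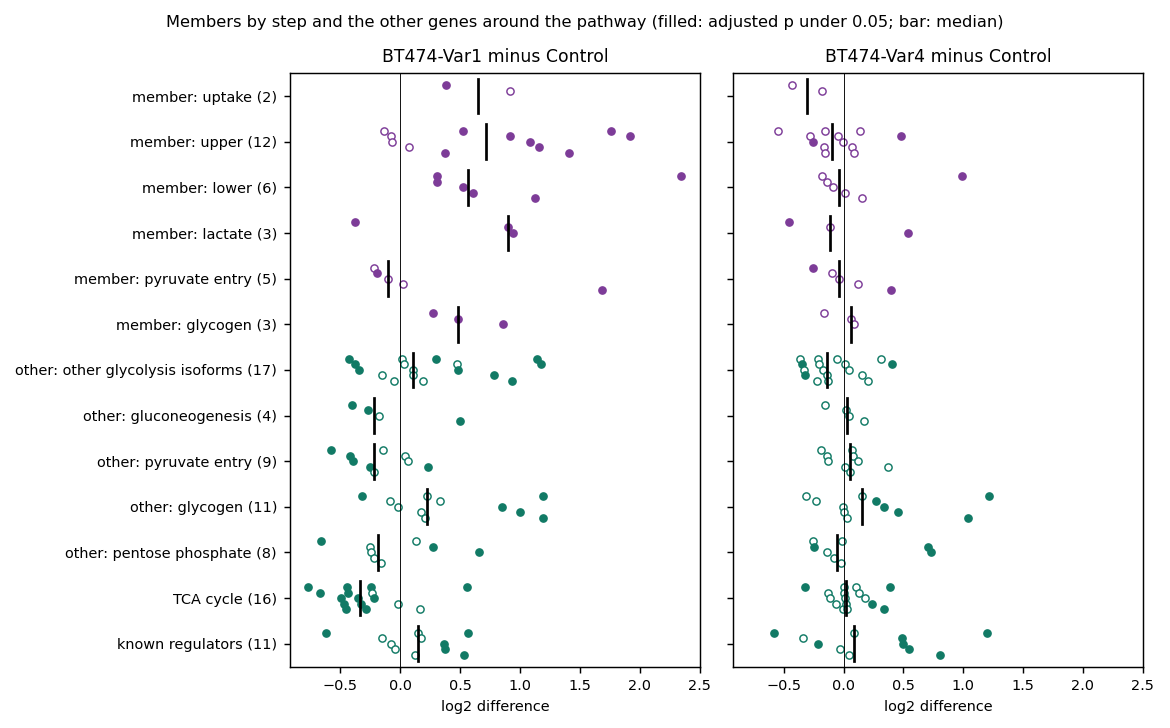
Log2 differences from Control (x axis) of the members by step (purple) and of the other genes around the pathway (green), in rows with the number of tested genes in brackets, for BT474-Var1 (left) and BT474-Var4 (right). Filled points have an adjusted p under 0.05 and black bars are medians. In BT474-Var1 cells the member rows from uptake to lactate and glycogen have medians above 0, while the TCA cycle has a median of -0.34.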

How the data were processed

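The labels describe total RNA labeled with Cy3 by a low-input kit and hybridized to one-color arrays. The authors quantified spots with Agilent Feature Extraction 11.5.1.1, which subtracts background and flags outlier and dim spots, and shifted each array to its 75th percentile. The deposited files hold linear, unnormalized intensities per spot, and a deposited table holds the authors' log2 values after the shift, which served as an alternative. File headers name hg19 and another array design than the methods.

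Here spots flagged as outliers (63 to 128 per array) were left out, spots of a probe were averaged, and log2 intensities were shifted to each array's 75th percentile over non-control probes (median absolute difference from the authors' table at most 0.00716). Tested were 31855 probes of 24616 gene names that passed the background flag on each array of 1 or more groups. Background and the number of arrays (2 per group) limit the precision. The model had group means over all 6 arrays (limma 3.58.1, R 4.3.3), with Benjamini-Hochberg adjustment over all tested probes, and a call needed an adjusted p under 0.05. Each gene was described on its tested probe with the highest mean. A fold against a group below background is a bound, set by the dimmest signal that passed the flag. All 32 members were named, and other genes of the lists at 2-fold and an adjusted p under 0.05, or where a count of 5 or fewer is named, and HIF1A and MYC were chosen after their values were seen. The members and lists were chosen with earlier results of these data known. The fit was tested on simulated data. Alternatives were normexp with an offset of 50, quantile normalization, other filters, the authors' table, a replicate block, eBayes with trend, the methods' one-way analysis of variance, only the groups compared, other probes of a gene, a 2-fold rule and each array left out. Promoter windows came from RefSeq's table for GRCh38.p14, and no coordinates were converted between builds.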

Additional observations from a re-analysis of the deposited data

How the results depend on the processing

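Across 16 alternatives per comparison, members called in BT474-Var1 against Control kept direction and call 315 times and lost the call 52 times. In BT474-Var4 against Control these numbers were 71 and 41, and in BT474-Var4 against BT474-Var1 364 and 19. HK2, GPI, PFKFB3, PFKFB4, ALDOA, PGK1, ENO2, LDHA, SLC16A3, PDK1 and GBE1 were called in BT474-Var1 against Control under each of these. ALDOC was called under 15 and was not tested under the other, which asks for probes well above background on all arrays. The count of calls in BT474-Var1 against Control, 23, was 12 with no filter, 8 with the 2-fold rule and 15 to 21 with an array left out. In BT474-Var4 against Control, 7, it was 12 with normexp, 16 with eBayes with trend and robust estimation, 1 with no filter, 4 with only the groups compared, 0 with the 2-fold rule and 1 to 5 with an array left out. In BT474-Var4 against BT474-Var1, 24, it was 9 with the 2-fold rule and 22 to 23 with an array left out. With the replicate letter as a block the counts were 21, 5 and 24. The deviations of A arrays from their group means correlated at -0.02 to 0.05 between groups, so arrays with the same letter shared no strong shift. Whether the letters pair the cultures is not given, and these correlations cannot tell. The median of the members moved to 0.43 (normexp), 0.65 (quantile) and 0.48 (well above background on all arrays) in BT474-Var1 against Control, to -0.048, -0.018 and -0.045 in BT474-Var4 against Control, and to -0.39, -0.62 and -0.49 in BT474-Var4 against BT474-Var1. The median over all genes moved by less than 0.1 under any scaling.

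Signs turned only in members that were not called. In BT474-Var1 against Control these were, under quantile normalization, HK1 (0.0024), PFKM (0.049), PFKFB2 (0.050) and PDK2 (0.027), and PDK3 with normexp (-0.0043), with the mean over probes (-0.20) and with an array left out (-0.015 to 0.067). In BT474-Var4 against Control they were HK2 (0.022 with normexp, 0.017 with quantile normalization, 0.41 with the mean over probes, -0.032 to 0.028 with an array left out), GPI (0.059) and GAPDH (0.052) with quantile normalization, PFKFB3 (0.65) and PDK3 (-0.071) with the mean over probes, and, with an array left out, SLC2A3 (-0.99 to 0.12) and ENO1 (-0.036 to 0.058). In BT474-Var4 against BT474-Var1 they were PDHA1 with normexp (0.0067) and with an array left out (-0.10 to 0.027), and LDHB with the mean over probes (0.012). The cause was not tested. Signal over background limits SLC2A3, ALDOC and SLC16A1.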

Other observations

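In the pentose phosphate pathway (8 tested genes), 2 were higher and 1 lower in BT474-Var1 cells, and likewise in BT474-Var4 cells. Over all genes 14.2% were called higher and 20.7% lower in BT474-Var1 cells, and 10.2% and 14.6% in BT474-Var4 cells, and with 8 genes the counts are too few to set apart from these shares. PGD, an enzyme of its oxidative branch, fell by 0.66 in BT474-Var1 cells (adjusted p = 0.00385) and had -0.01 in BT474-Var4 cells. C12orf5, the array name of the phosphatase TIGAR, had -0.25 in BT474-Var1 cells (adjusted p = 0.129). For BT474-Var4 it was 0.71 (adjusted p = 0.0160), and the variants differed by 0.96 (adjusted p = 0.00454). In BT474-Var1 cells MPC1 and MPC2, which form the mitochondrial pyruvate carrier, fell by 0.42 (adjusted p = 0.00980) and by 0.39 (adjusted p = 0.00846), and DLAT, the second enzyme of the pyruvate dehydrogenase complex, by 0.57 (adjusted p = 0.00742). Of the TCA cycle, FH and SUCLG1 fell in the same cells by 0.77 (adjusted p = 0.00383) and by 0.67 (adjusted p = 0.00470), beside 0.02 and -0.06 for BT474-Var4. These genes were chosen for naming after their values were seen, and the p-values are from limma over all tested probes.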
